A study of Mus musculus with 18 samples.

Results

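Transcripts of the integrated stress response were followed in pancreatic islets of mice whose beta cells lacked TRAF2 or TRAF3. The set holds 10 genes chosen by name: Atf4, Atf3, Ddit3, Ppp1r15a, Trib3, Chac1, Sesn2, Asns, Psat1 and Vldlr. Each was measured by 1 probe set that the platform annotation assigns to that gene alone, so all 10 were found among 22180 genes tested. Only RNA was measured, so phosphorylation of eIF2 and the amounts of the proteins were not.

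The integrated stress response begins when one of several kinases phosphorylates the translation factor eIF2, which slows general protein synthesis and lets a few messages, Atf4 among them, be translated better. The transcription factor ATF4 then raises genes of amino acid supply and redox balance and, with ATF3 and CHOP (the product of Ddit3), genes of recovery or cell death. In beta cells, which make large amounts of proinsulin, the pathway is best known through the endoplasmic reticulum kinase PERK.

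Islets were taken at 16 weeks of age from mice of both sexes on a C57BL/6 background, and there were 6 groups of 3 arrays. Mice with floxed TRAF2 alleles and RIP-Cre (TRAF2 knockouts), mice with floxed TRAF3 alleles and RIP-Cre (TRAF3 knockouts) and floxed littermates (controls) were each kept on chow or given a high-fat diet (HFD) with 45% of its energy as fat for 8 weeks. RIP-Cre is a recombinase under the rat insulin promoter, which is known to act in some brain neurons as well as in beta cells. The labels do not say which floxed allele the controls carried, whether they lacked Cre, or whether 1 sample is 1 mouse, so p-values measure the spread between these samples. Both proteins restrain the kinase NIK, and the study asked what constant NIK activity does in beta cells. Whole islets were used, so a change in a transcript per cell and a change in the share of cells that hold it cannot be told apart.

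Values are log2 signals as deposited. They compare 1 gene across arrays, not 1 gene with another. Errors on group means are standard deviations (SD) over the 3 arrays of a group. Fold changes, standard errors (SE), 95% intervals and adjusted p come from 1 limma fit of 6 group means over all 22180 genes, two-sided, with Benjamini-Hochberg adjustment within each comparison, and a gene was called at an adjusted p under 0.05.

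The hormone transcripts Ins2 (11.01 to 12.07), Gcg (12.70 to 13.09), Sst (12.14 to 13.22) and Ppy (12.81 to 13.34) were high on all 18 arrays, as was the acinar gene Cpa1 (12.85 to 13.51), a marker of exocrine tissue. Traf2 read 7.04 to 7.34 in chow controls and 7.22 to 7.50 in chow TRAF2 knockouts, by a probe set not known to lie in the deleted part, so it does not check the genotype. By Xist and Y-linked genes, 10 arrays were female and 8 male: each chow group held 1 female array, the HFD controls 3 and each HFD knockout group 2. Chow control 1, which was female, was the lowest of the chow controls for 10 of 10 members, by 0.41 (Vldlr) to 2.89 (Atf3) below the mean of the other pair. Its removal changes several counts below. It also changes the pooled spread of every gene, so the shares of all genes from the full fit do not apply there. The shares in the fits without it are not given.

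Promoter sequence is shown for 4 members because it sets genes that moved differently side by side. Atf3 and Ppp1r15a were called higher in HFD TRAF3 knockouts, Chac1 was higher but not called, and Asns was not higher. The motif searched was TGATGNAA, the core of the C/EBP-ATF response element bound by ATF4 with a C/EBP partner, on both strands. The 250 bases before the annotated start are given 5′ to 3′ on the gene's strand (RefSeq, GRCm38.p6), with matches in capitals. The windows are chr1:191183334-191183583 (minus strand, Atf3), chr7:45526269-45526518 (minus, Ppp1r15a), chr2:119350992-119351241 (plus, Chac1) and chr6:7693210-7693459 (minus, Asns).
Atf3: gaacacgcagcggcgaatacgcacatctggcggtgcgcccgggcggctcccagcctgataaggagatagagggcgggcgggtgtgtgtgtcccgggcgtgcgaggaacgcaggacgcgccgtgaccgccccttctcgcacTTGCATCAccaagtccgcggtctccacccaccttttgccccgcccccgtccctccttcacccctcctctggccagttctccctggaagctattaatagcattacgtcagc
Ppp1r15a: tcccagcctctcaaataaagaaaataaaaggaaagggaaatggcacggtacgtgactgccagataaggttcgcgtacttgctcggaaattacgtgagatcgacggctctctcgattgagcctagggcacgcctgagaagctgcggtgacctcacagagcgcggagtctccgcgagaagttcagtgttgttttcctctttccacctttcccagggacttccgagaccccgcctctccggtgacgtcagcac
Chac1: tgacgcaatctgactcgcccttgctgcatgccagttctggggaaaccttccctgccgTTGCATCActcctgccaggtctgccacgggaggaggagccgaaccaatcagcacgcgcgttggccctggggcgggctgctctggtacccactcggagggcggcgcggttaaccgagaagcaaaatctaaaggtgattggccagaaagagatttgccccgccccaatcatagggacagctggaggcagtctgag
Asns: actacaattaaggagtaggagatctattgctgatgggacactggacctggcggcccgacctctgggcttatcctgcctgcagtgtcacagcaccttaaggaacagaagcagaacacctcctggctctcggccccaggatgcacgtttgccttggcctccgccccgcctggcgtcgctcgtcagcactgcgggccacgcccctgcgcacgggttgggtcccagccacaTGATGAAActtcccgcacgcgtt

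In the full window, which runs 50 bases past the start, 5 of the members' 12 annotated promoters, those of 5 genes, held the core, as did 3.97% of all 32851 promoters. Counted from the start, with -1 as the last base before it, the match lay at -110 to -103 in Atf3, -193 to -186 in Chac1, -23 to -16 in Asns and -200 to -193 at the second annotated start of Vldlr, and at 14 to 21 bases past the start in Trib3. The ER stress element (CCAAT, any 9 bases, CCACG), bound by ATF6 with NF-Y, was in none of the members' 12 promoters and in 0.119% of all promoters. A match describes letters and not binding. The core did not separate the members by what they did below: Asns holds it and was not higher in knockouts, and Ppp1r15a lacks it in this window and was.

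**Figure D1:**
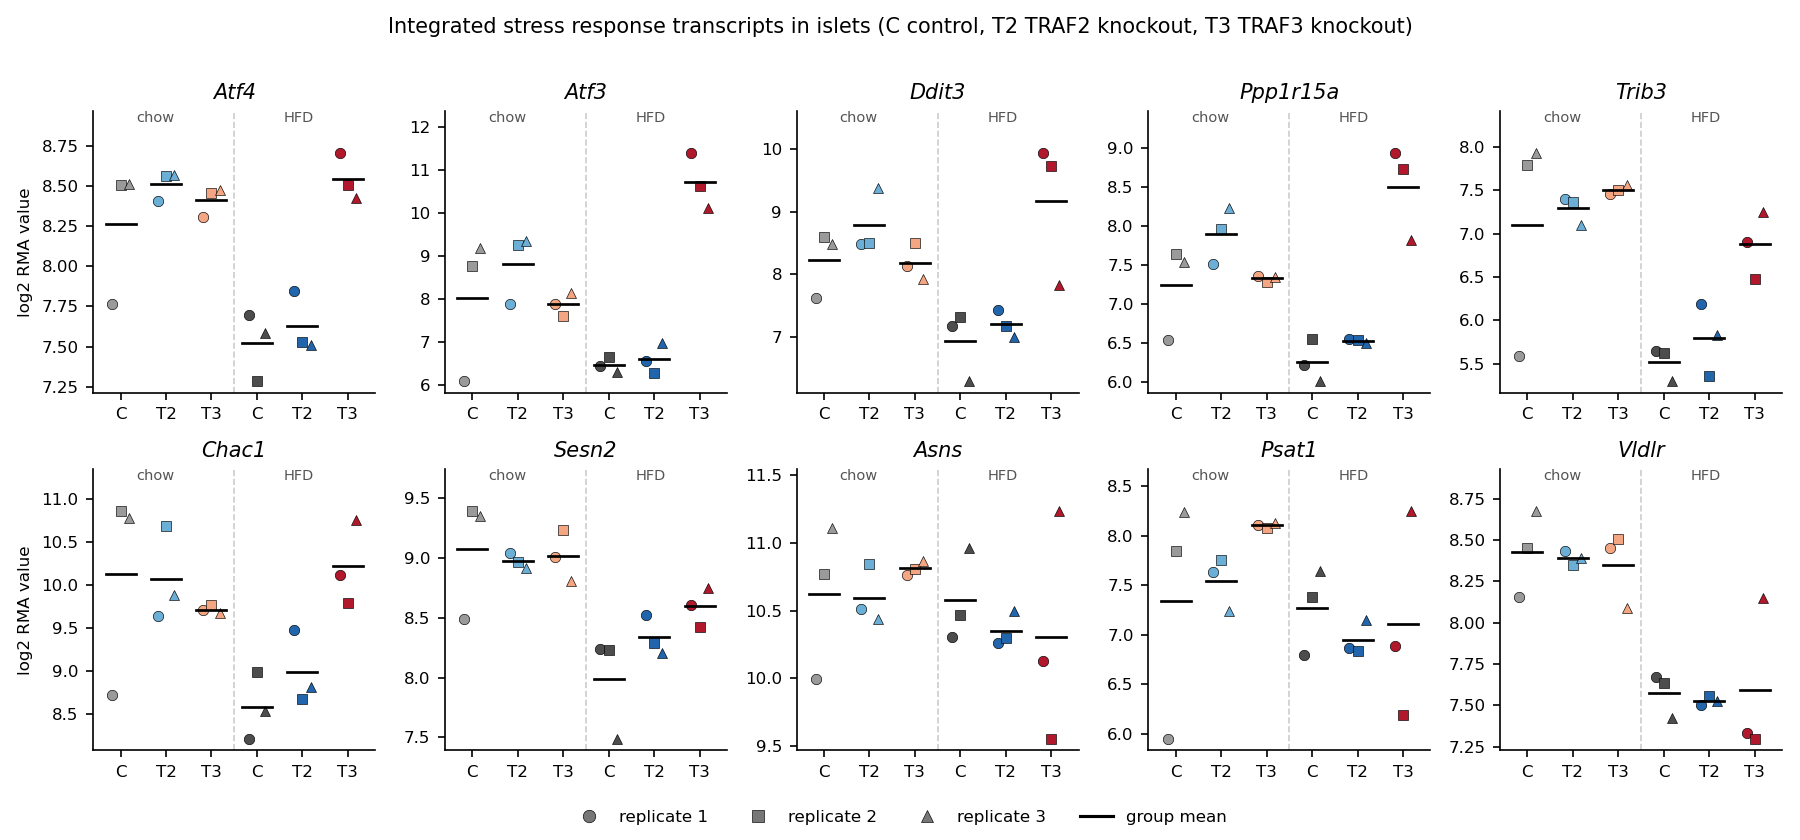
Log2 signal of each of the 10 genes on every array, by diet and genotype, with circles, squares and triangles for replicates 1, 2 and 3 and a bar at the group mean. For Atf3 the 3 HFD TRAF3 knockout arrays lay between 10.12 and 11.41, above all other arrays, and for Asns they spread from 9.55 to 11.24.

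On the high-fat diet, TRAF3 knockout islets held more transcript of the response's transcription factors and of its phosphatase subunit than controls. Atf3 was 19.2-fold, Ppp1r15a 4.74-fold, Ddit3 4.74-fold and Atf4 2.04-fold higher, and these 4 of 10 members were called, against 2.52% of all genes in this comparison. The amino acid genes Asns and Psat1 and the lipoprotein receptor Vldlr were not called. The members' median log2 fold change was 1.19 and that of all genes was -0.02. HFD TRAF3 knockout 3 differed from the other arrays of its group in the make-up of this response, as the values show.

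Atf4 encodes the factor at the centre of the pathway, whose activity is set mainly by translation. It read 8.71, 8.51 and 8.43 in the 3 HFD TRAF3 knockouts and 7.70, 7.28 and 7.58 in the HFD controls. The groups did not overlap, and the log2 difference was 1.03 ± 0.18 (SE, 95% interval 0.65 to 1.41, adjusted p = 0.0061). The chow groups lay at 8.26 ± 0.43 (SD, n = 3) in controls, 8.52 ± 0.09 in TRAF2 knockouts and 8.41 ± 0.09 in TRAF3 knockouts. The HFD TRAF3 knockouts (8.55 ± 0.15) were thus at the level of the chow groups, and the HFD controls and HFD TRAF2 knockouts (7.63 ± 0.19) lay below it.

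Atf3 encodes a stress-induced factor of the same family. Its HFD TRAF3 knockout arrays read 11.41, 10.64 and 10.12 against 6.43, 6.64 and 6.30 in HFD controls, a difference of 4.26 ± 0.60 (95% interval 2.99 to 5.53, adjusted p = 0.0016). All other arrays were lower, the next highest being chow TRAF2 knockouts 3 and 2 (9.34 and 9.25) and chow control 3 (9.18). In the HFD TRAF2 knockouts it read 6.56, 6.28 and 6.96, within 0.14 of the controls on average.

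Ddit3 encodes CHOP, a factor tied to cell death under prolonged stress. It read 9.94, 9.73 and 7.83 in HFD TRAF3 knockouts, so that replicate 3 lay 2.01 below the mean of the other pair, and 7.17, 7.31 and 6.29 in HFD controls. The groups did not overlap (2.24 ± 0.45, 95% interval 1.28 to 3.21, adjusted p = 0.0147). The call rested on single arrays: it was lost without HFD TRAF3 knockout 1, HFD TRAF3 knockout 2 or HFD control 3, where the difference ranged down to 1.86, and without HFD TRAF3 knockout 3 it was 2.91.

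Ppp1r15a encodes GADD34, which brings protein phosphatase 1 to eIF2 and so ends the translational block. It had the lowest p of the members in this comparison (2.24 ± 0.29, 95% interval 1.62 to 2.87, adjusted p = 0.0011). The 3 HFD TRAF3 knockouts read 8.95, 8.73 and 7.83, and the HFD controls 6.21, 6.55 and 6.01. Again replicate 3 was the lowest of the knockouts and still above every control. Chow TRAF2 knockouts, at 7.51, 7.96 and 8.23, were the next highest group.

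Trib3, Chac1 and Sesn2 act downstream of ATF4 and CHOP. Trib3 encodes a pseudokinase that restrains AKT and ATF4 itself, Chac1 an enzyme that breaks down glutathione, and Sesn2 a leucine sensor that restrains mTORC1. All 3 missed the threshold, although their HFD TRAF3 knockout and control arrays did not overlap. With 3 arrays a side, a lack of overlap is weak evidence, and its share over all genes was not counted. Trib3, Ppp1r15a and Psat1 also did not overlap between the knockouts on chow, and none of these was called there.

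Chac1 read 10.12, 9.79 and 10.77 in HFD TRAF3 knockouts and 8.21, 8.99 and 8.54 in HFD controls (1.65 ± 0.46, adjusted p = 0.0699). For Trib3 the values were 6.91, 6.48 and 7.25 against 5.65, 5.62 and 5.30 (1.36 ± 0.43, adjusted p = 0.12). Sesn2 read 8.61, 8.42 and 8.75 against 8.24, 8.23 and 7.49 (0.61 ± 0.23, adjusted p = 0.2). Without chow control 1, which enters this comparison only through the pooled spread, Trib3 (adjusted p = 0.0018) and Chac1 (adjusted p = 0.00595) were called as well, 6 of 10 members in all. The share of all genes called in that fit is not given. In Chac1, Trib3 and Sesn2 replicate 3, the lowest for Atf3, Ddit3, Atf4 and Ppp1r15a, was the highest of the HFD TRAF3 knockouts.

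Asns, the asparagine synthetase, and Psat1, an aminotransferase of serine synthesis, are classic ATF4 targets of amino acid supply. Asns read 10.13, 9.55 and 11.24 in HFD TRAF3 knockouts and 10.30, 10.47 and 10.96 in HFD controls, which overlap (-0.27 ± 0.34, 95% interval -0.98 to 0.44, adjusted p = 0.773). Psat1 read 6.89, 6.20 and 8.25 against 6.80, 7.38 and 7.64 (-0.16 ± 0.50, interval -1.22 to 0.91, adjusted p = 0.93). Replicate 3 was higher than the mean of the other knockouts by 1.40 for Asns and 1.71 for Psat1. Without it the differences from control were -0.74 (adjusted p = 0.167) and -0.73 (adjusted p = 0.454). The interval for Asns leaves no room for a rise like that of Atf4 at its estimate, whereas that of Psat1 reaches close to it.

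Vldlr encodes a receptor for triglyceride-rich lipoproteins that PERK and ATF4 can raise. It read 7.33, 7.30 and 8.15 in HFD TRAF3 knockouts and 7.67, 7.64 and 7.42 in HFD controls. The mean difference was 0.02 ± 0.20 (interval -0.40 to 0.43, adjusted p = 0.982), and replicate 3 was again apart, this time as the highest.

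**Figure D2:**
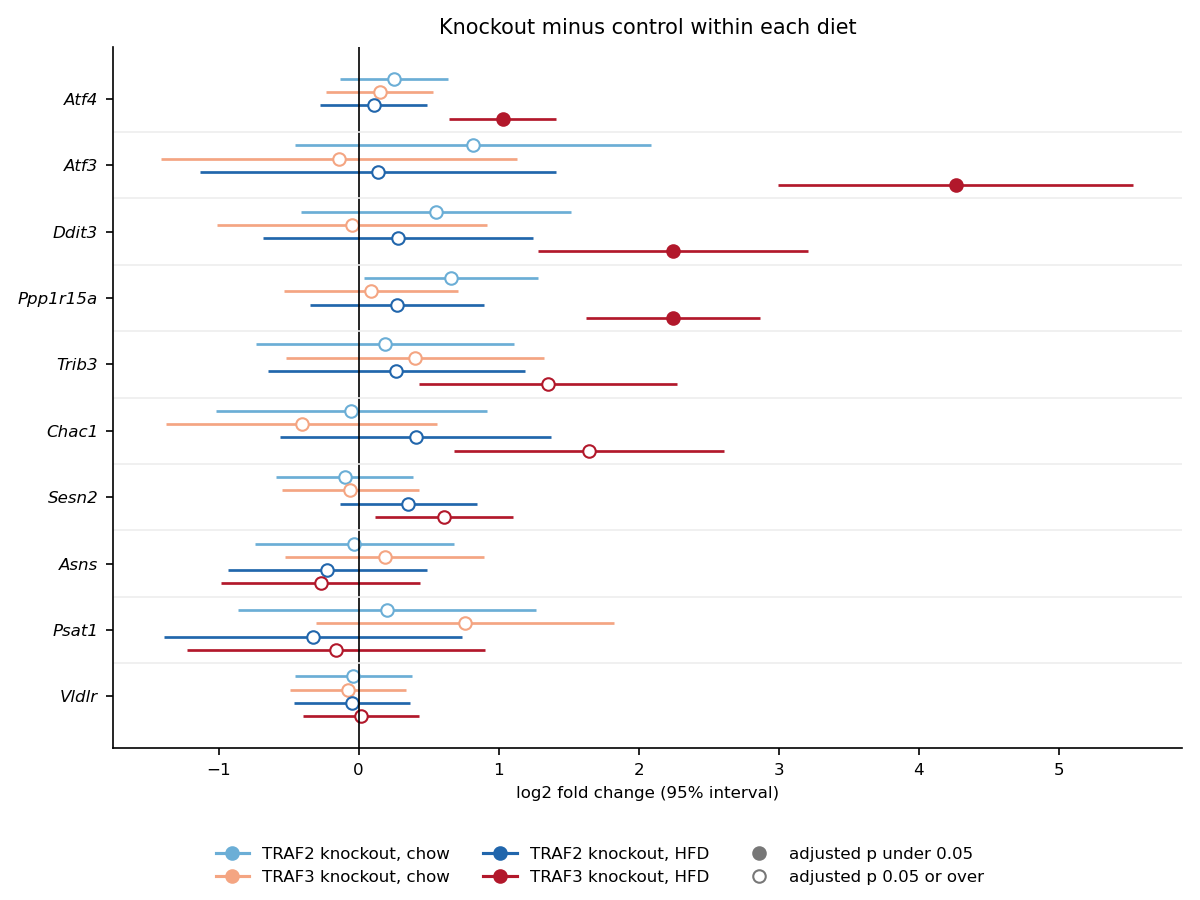
Log2 fold change of each gene, knockout minus control, with 95% intervals from limma, for both knockouts on both diets. Filled points have an adjusted p under 0.05: they are Atf4 (1.03), Atf3 (4.26), Ddit3 (2.24) and Ppp1r15a (2.24) in HFD TRAF3 knockouts, and no point of the other 3 comparisons is filled.

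TRAF2 knockouts on the same diet did not show this rise. Against HFD controls 0 of 10 members were called (0.252% of all genes), with log2 fold changes from -0.32 (Psat1) to 0.41 (Chac1) and no unadjusted p under 0.05. The 95% interval for Atf3 was -1.13 to 1.41 and that for Ppp1r15a -0.35 to 0.89. These controls are also those of the TRAF3 comparison, so the knockouts were set against each other directly. HFD TRAF3 knockouts were higher than HFD TRAF2 knockouts for Atf3 (4.13 ± 0.60, adjusted p = 0.00362), Ppp1r15a (1.97 ± 0.29, adjusted p = 0.00419) and Atf4 (0.92 ± 0.18, adjusted p = 0.0209), 3 of 10 against 1.05% of all genes. For Ddit3 the difference was 1.97 ± 0.45 (adjusted p = 0.0509). Chac1 (1.24 ± 0.46, adjusted p = 0.28) and Trib3 (1.09 ± 0.43, adjusted p = 0.34) missed the threshold. The call of Atf4 was lost when any of HFD TRAF2 knockout 2 or 3 or HFD TRAF3 knockout 1 or 2 was left out. Without chow control 1, which acts here only through the pooled spread, 5 of 10 members were called. The 1.05% does not apply to that fit, whose share of all genes is not given.

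Sex differed between these groups. Among female arrays alone (3 HFD controls and 2 HFD TRAF3 knockouts) Atf3 was 3.92 ± 0.26 higher (adjusted p = 0.00241) and Ppp1r15a 2.02 ± 0.28 (adjusted p = 0.0321), while Atf4 (0.95 ± 0.17, adjusted p = 0.0816) and Ddit3 (1.86 ± 0.54, adjusted p = 0.246) lost their calls. With a sex score as a covariate in all 18 arrays the 4 calls held, at 4.01, 2.14, 0.95 and 2.11 in the same order. Markers of other cells also varied within the HFD TRAF3 knockouts. The lymphocyte score, the mean deviation of its markers on the log2 scale, was 2.25 in replicate 2 and below 0 in the other two, and -0.07, 0.45 and -0.28 in HFD controls. Acinar scores were -0.11, -1.48 and 0.91 against 0.42, 0.51 and 0.98. Of 9 macrophage markers Adgre1 was lower (-1.59 ± 0.33, adjusted p = 0.0172), of 7 fibroblast and pericyte markers Acta2 was lower (-2.58 ± 0.39, adjusted p = 0.00254), and none of 8 ductal, 9 acinar, 8 lymphocyte or 5 beta cell markers was called. Against HFD TRAF2 knockouts, Adgre1 (-1.73 ± 0.33, adjusted p = 0.019), the macrophage receptor Csf1r (-1.57 ± 0.34, adjusted p = 0.0331) and Acta2 (-2.53 ± 0.39, adjusted p = 0.00583) were lower. Of all genes, 2.52% were called against controls and 1.05% against HFD TRAF2 knockouts. The part of cell make-up in the members' values was not tested.

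On chow no member was called in either knockout, which does not show that the set was unchanged, since the intervals were wide. TRAF2 knockouts had 0 of 10 members called against 0.298% of all genes, and TRAF3 knockouts 0 of 10 against 11.0%, although 2445 genes were called in the latter. The highest value in chow TRAF2 knockouts was that of Atf3 (0.82 ± 0.60, adjusted p = 0.935), at 7.88, 9.25 and 9.34 against 6.08, 8.77 and 9.18 in controls. Ppp1r15a was the 1 member with an unadjusted p under 0.05 there (0.66 ± 0.29, adjusted p = 0.748). In chow TRAF3 knockouts Atf3 read 7.87, 7.60 and 8.14 (-0.14 ± 0.60, adjusted p = 0.935) and Psat1 8.11, 8.08 and 8.13 against 5.95, 7.85 and 8.23 in controls (0.76 ± 0.50, adjusted p = 0.405). The chow TRAF3 knockout arrays lay close together for Psat1 (SD 0.03), Ppp1r15a (0.04) and Chac1 (0.05), where the chow controls had SDs of 1.22, 0.61 and 1.22. TRAF3 and TRAF2 knockouts on chow did not differ in any member by limma (0 of 10, against 2.01% of all genes, and 0 with an unadjusted p under 0.05), the lowest adjusted p being 0.364 for Ppp1r15a (-0.57 ± 0.29).

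Averaged over both knockouts and both diets, 1 of 10 members was called against 2.80% of all genes. That gene was Ppp1r15a (0.82 ± 0.18, adjusted p = 0.0213), and its call was lost without HFD control 1, HFD control 3 or chow control 1 (0.64 to 0.92 over all arrays left out in turn). Atf4 (0.38 ± 0.11, adjusted p = 0.0784) and Atf3 (1.27 ± 0.37, adjusted p = 0.0796) were next, and an average over such unlike groups describes none of them.

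The high-fat diet was accompanied by lower values of the set in controls and TRAF2 knockouts and by a mixed picture in TRAF3 knockouts. In controls and in TRAF2 knockouts 10 of 10 log2 fold changes from chow to HFD were below 0, with medians of -1.04 and -0.99 against 0.01 in all genes for both. In TRAF3 knockouts 5 were above and 5 below 0, with a median of -0.14. There Atf3 and Ppp1r15a rose and Vldlr fell. Sesn2 was the 1 of 10 members called in controls, where 0.884% of all genes were, and Atf4, Ppp1r15a and Vldlr were the 3 of 10 called in TRAF2 knockouts, against 1.96%.

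**Figure D3:**
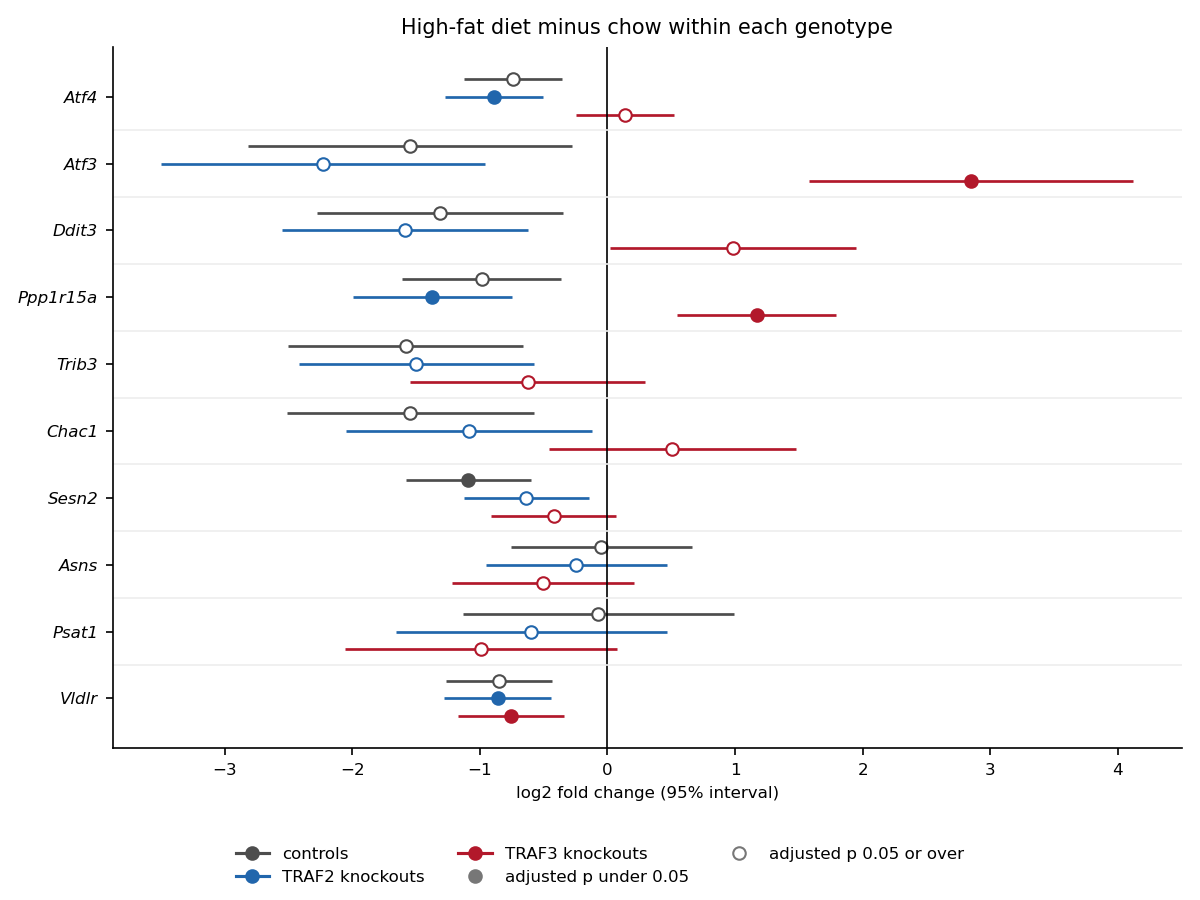
Log2 fold change of each gene, HFD minus chow, within controls, TRAF2 knockouts and TRAF3 knockouts, with 95% intervals from limma and filled points at an adjusted p under 0.05. Atf3 was at -1.55 in controls and -2.23 in TRAF2 knockouts but at 2.85 in TRAF3 knockouts, whereas Vldlr lay between -0.86 and -0.76 in all 3 genotypes.

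In controls, Sesn2 fell from 8.49, 9.39 and 9.35 on chow to 8.24, 8.23 and 7.49 on HFD (-1.09 ± 0.23, adjusted p = 0.0401), with no overlap. Atf4 (-0.74 ± 0.18, adjusted p = 0.0631) and Vldlr (-0.85 ± 0.20, adjusted p = 0.052) missed the threshold. Trib3 (-1.58 ± 0.43), Atf3 (-1.55 ± 0.60) and Chac1 (-1.55 ± 0.46) had the largest estimates but overlapped, since chow control 1 lay among or below the HFD controls. For Trib3 it read 5.58, with 7.80 and 7.93 in the other chow controls and 5.65, 5.62 and 5.30 in the HFD controls. Without chow control 1 the diet contrast in controls called 7 of 10 members, all lower, with Trib3 at -2.34 and Atf3 at -2.51. The share of all genes called in that fit is not given, so this count is not set against a background. Without either of the other chow controls, or any of the 3 HFD controls, it called 0, and the call of Sesn2 was lost in 11 of the 18 fits that left out 1 array. All HFD controls and chow control 1 were female, and among female arrays alone the 1 chow control left differed little from them (Trib3 -0.06 ± 0.34, Sesn2 -0.50 ± 0.33, adjusted p = 0.963 and 0.649). Diet, sex and this 1 array therefore cannot be told apart in the controls. Macrophage markers moved the other way: 5 of 9 were higher on HFD in controls (Adgre1 2.24 ± 0.33, adjusted p = 0.0071) and 3 of 9 in TRAF2 knockouts (Adgre1 2.28 ± 0.33, adjusted p = 0.00229), as was the pericyte gene Acta2 in both (2.31 ± 0.39 and 3.52 ± 0.39, adjusted p = 0.017 and 0.00027). In these comparisons 0.523% of all genes were higher in controls and 0.884% in TRAF2 knockouts. The part of these markers in the members' fall was not tested.

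Values fell in TRAF2 knockouts too. Sex was not balanced there, with 1 female array of 3 on chow and 2 of 3 on HFD, so diet and sex are not cleanly separated. Ppp1r15a went from 7.51, 7.96 and 8.23 to 6.55, 6.54 and 6.49 (-1.37 ± 0.29, adjusted p = 0.0249). Atf4 went from 8.41, 8.56 and 8.57 to 7.85, 7.53 and 7.51 (-0.89 ± 0.18, adjusted p = 0.0179), and Vldlr from 8.43, 8.35 and 8.39 to 7.50, 7.56 and 7.52 (-0.86 ± 0.20, adjusted p = 0.0335). No array of these 3 genes overlapped between diets. Atf3 (-2.23 ± 0.60, adjusted p = 0.0681), Ddit3 (-1.59 ± 0.45, adjusted p = 0.088) and Trib3 (-1.50 ± 0.43, adjusted p = 0.0906) missed the threshold. The count fell to 0 without HFD TRAF2 knockout 2 or 3 or chow TRAF2 knockout 2 or 3, to 1 without HFD TRAF2 knockout 1, and rose to 5 without chow control 1. The shares of all genes in these fits are not given.

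In TRAF3 knockouts 3 of 10 members were called between diets, against 8.67% of all genes. Sex was not balanced here either, with 1 female array of 3 on chow and 2 of 3 on HFD. Atf3 went from 7.87, 7.60 and 8.14 on chow to 11.41, 10.64 and 10.12 on HFD (2.85 ± 0.60, 7.22-fold, adjusted p = 0.00904) and Ppp1r15a from 7.36, 7.28 and 7.35 to 8.95, 8.73 and 7.83 (1.17 ± 0.29, adjusted p = 0.0223). Vldlr fell, from 8.45, 8.51 and 8.09 to 7.33, 7.30 and 8.15 (-0.76 ± 0.20, adjusted p = 0.0261), although replicate 3 stayed at its chow level. Some markers of other cell types and beta cell genes moved in this comparison too. Of 9 beta cell genes 7 were higher on HFD (Slc2a2 2.61 ± 0.52, adjusted p = 0.00719), and 2 of 6 endothelial markers, Cdh5 and Esam, were lower. Of 9 macrophage markers only 1, Cd68, was called (-1.75 ± 0.44, adjusted p = 0.022), and the median of these markers was -0.08. Their part in the members' values was not tested. Without HFD TRAF3 knockout 3, 6 members were called, 3 higher and 3 lower, and without HFD TRAF3 knockout 1 or 2 or chow TRAF3 knockout 1 or 2 only Atf3 was. Psat1 (-0.99 ± 0.50, adjusted p = 0.266) and Asns (-0.50 ± 0.34, adjusted p = 0.429) had negative estimates.

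The difference between these diet effects was tested as an interaction, the knockout effect on HFD minus that on chow. For TRAF3 it called 3 of 10 members, all positive, against 5.80% of all genes: Atf3 (4.40 ± 0.85, adjusted p = 0.0112), Ppp1r15a (2.15 ± 0.41, adjusted p = 0.0112) and Ddit3 (2.29 ± 0.64, adjusted p = 0.0471). Atf4 (0.88 ± 0.26, adjusted p = 0.0548) and Chac1 (2.05 ± 0.64, adjusted p = 0.0727) missed the threshold, and Asns (-0.46 ± 0.47, adjusted p = 0.66) and Psat1 (-0.92 ± 0.71, adjusted p = 0.521) had the opposite sign. The call of Ddit3 was lost in 14 of the 18 fits that left out 1 array. Atf3 and Ppp1r15a kept theirs in all 18, and the count was 6 without chow control 1. The 5.80% does not apply to that fit. For TRAF2 the interaction called 0 of 10 members, 0% of all genes and 0 members at an unadjusted p under 0.05, with estimates from -0.68 (Atf3) to 0.46 (Chac1).

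Ordered by level over the 6 groups, the members fell into 3 kinds. Atf3, Atf4, Ddit3, Ppp1r15a and Chac1 had their highest mean in HFD TRAF3 knockouts and their lowest in HFD controls. Of these, only Atf3 had all its HFD TRAF3 knockout arrays above every other array. Ddit3 ran from 7.83 to 9.94 there and from 8.48 to 9.38 in chow TRAF2 knockouts. For Ppp1r15a the ranges were 7.83 to 8.95 and 7.51 to 8.23. For Atf4 and Chac1 the top groups did not differ beyond their spread: Chac1 read 10.23 ± 0.50 in HFD TRAF3 knockouts, 10.13 ± 1.22 in chow controls, 10.07 ± 0.55 in chow TRAF2 knockouts and 9.72 ± 0.05 in chow TRAF3 knockouts. Trib3, Sesn2 and Vldlr were higher in the 3 chow groups than in the 3 HFD groups. For Trib3 these were 7.11 ± 1.32, 7.29 ± 0.17 and 7.51 ± 0.05 on chow against 5.52 ± 0.20, 5.79 ± 0.42 and 6.88 ± 0.39 on HFD, in the order control, TRAF2 knockout and TRAF3 knockout. Asns moved least, its group means lying between 10.31 and 10.81, and Psat1 ran from 6.95 to 8.11, both with their highest mean in chow TRAF3 knockouts.

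**Figure D4:**
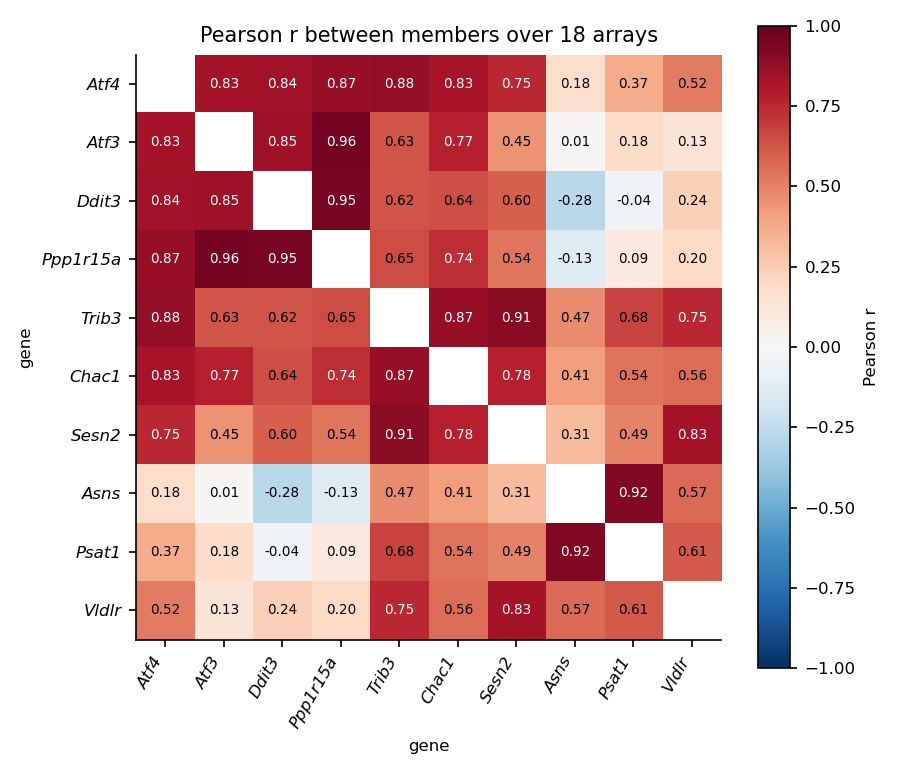
Pearson correlation of each pair of the 10 genes over all 18 arrays, red above 0 and blue below. Atf3, Ddit3, Ppp1r15a and Atf4 share r of 0.83 to 0.96, Asns and Psat1 share 0.92, and r between Asns and Ddit3 is -0.28.

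Over the 18 arrays some members varied together more closely than others, and no clustering was run. Correlations are given as descriptions, since the arrays share groups, normalization and cell make-up. Of 45 pairs 42 had r above 0, with a median of 0.62 and a range of -0.28 to 0.96. Atf3 with Ppp1r15a (0.96), Ddit3 with Ppp1r15a (0.95) and Asns with Psat1 (0.92) were the closest pairs, followed by Trib3 with Sesn2 (0.91). Of deviations from group means, which leave out the group differences, the same pairs had r of 0.85, 0.87, 0.94 and 0.80. Other pairs fell further: Atf4 with Ddit3 went from 0.84 to 0.46 and Atf3 with Ddit3 from 0.85 to 0.55. Links also ran between these pairs, such as Atf4 with Trib3 (0.88). Over 18 arrays r with the ductal marker score was 0.84 for Psat1, 0.74 for Asns, 0.65 for Trib3 and 0.55 for Chac1. It was 0.45 for Atf4, 0.435 for Sesn2, 0.36 for Vldlr, 0.29 for Atf3, 0.20 for Ppp1r15a and 0.03 for Ddit3. The genes outside the set whose values were most like the members' mean deviation were Mafk, a small Maf factor (r = 0.97), the ETS factor Ets2 (0.95), the pseudokinase Stk40 (0.95), the keratin Krt8 (0.95) and Ccdc86 (0.95). They were chosen for this likeness, so their levels are a description: Mafk had a mean of 8.77 in HFD TRAF3 knockouts, 7.38 in HFD controls and 8.14 in chow controls.

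Upstream of ATF4 stand the eIF2 kinases and their partners. Of 15 measured genes for eIF2 kinases, eIF2 and eIF2B subunits and phosphatase parts, 0 were called in HFD TRAF3 knockouts (2.52% of all genes). In chow TRAF3 knockouts 4 were higher, where 6.33% of all genes were higher and 11.0% were called. The interaction with diet called 1 of 15, Ppp1ca (-0.79 ± 0.13, adjusted p = 0.00585), against 5.80% of all genes, and Eif2ak2 (-1.50 ± 0.43, adjusted p = 0.0543) missed the threshold. Eif2ak2, the interferon-induced kinase PKR, read 8.24, 8.31 and 8.27 in chow TRAF3 knockouts and 7.07, 7.11 and 6.72 in chow controls (1.31 ± 0.31, adjusted p = 0.0136), and 6.63, 6.48 and 5.75 in HFD TRAF3 knockouts. The exchange factor subunit Eif2b5 (0.65 ± 0.17, adjusted p = 0.0211) and the phosphatase catalytic subunit Ppp1ca (0.47 ± 0.09, adjusted p = 0.0054) rose in the same chow comparison. The fourth was Eif2b3 (0.41 ± 0.12, adjusted p = 0.04), named here after its value was seen.

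Among 11 bZIP factors that can pair with ATF4, ATF3 or CHOP or bind similar sites, 4 rose in HFD TRAF3 knockouts. In that comparison 1.68% of all genes were higher. Jun read 11.98, 11.85 and 11.10 in the knockouts and 8.28, 8.81 and 8.42 in HFD controls (3.14 ± 0.30, 8.83-fold, adjusted p = 0.000194), second by p among all genes. Fos read 9.53, 9.34 and 6.91 against 5.73, 6.34 and 5.30 (2.80 ± 0.64, adjusted p = 0.0277), with replicate 3 the lowest, as for Ddit3. Jund rose too (1.77 ± 0.27, adjusted p = 0.00217), and the fourth, Cebpb (1.27 ± 0.29, adjusted p = 0.0259), encodes the C/EBP partner and was named after its value was seen. In chow TRAF3 knockouts 2 of the 11 rose, where 6.33% of all genes were higher and 11.0% were called. They were Nfe2l2 (0.66 ± 0.16, adjusted p = 0.0142) and Jdp2 (1.03 ± 0.23, adjusted p = 0.0108), named after their values were seen. None of the 11 was called in TRAF2 knockouts against controls on chow (0.298% of all genes) or HFD (0.252%).

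Of 50 other known targets in 4 lists, 2 were higher and 0 lower in HFD TRAF3 knockouts, against 2.52% of all genes. Of 13 genes of amino acid and one-carbon synthesis, 10 amino acid transporters and 11 aminoacyl-tRNA synthetases, 0 were called in HFD TRAF3 knockouts in either direction, and their median log2 fold changes were 0.03, 0.35 and 0.04. In chow TRAF3 knockouts 6 of the 50 rose and 1 fell, which is near the shares of all genes there (6.33% higher and 4.69% lower). By list, 2 of 13, 1 of 10 and 0 of 11 of these genes rose: the phosphatase of serine synthesis Psph (0.98 ± 0.20, adjusted p = 0.00579), Shmt1 (0.61 ± 0.15, adjusted p = 0.0155) and the transporter Slc38a7 (0.75 ± 0.13, adjusted p = 0.00319). From chow to HFD within TRAF3 knockouts 5 of 11 synthetases fell, where 6.01% of all genes were lower: Sars (-0.76 ± 0.14, adjusted p = 0.00404), Cars (-0.89 ± 0.20, adjusted p = 0.0145), Mars1, Gars and Iars, all but Cars named after their values were seen. Of 16 genes of stress, growth and death, 2 rose in HFD TRAF3 knockouts: the cell cycle inhibitor Cdkn1a (2.08 ± 0.30, adjusted p = 0.00178) and the growth arrest gene Gadd45b (1.93 ± 0.24, adjusted p = 0.000839). In chow TRAF3 knockouts 3 of them rose and 1 fell. The death receptor Tnfrsf10b (1.80 ± 0.46, adjusted p = 0.0206), the oxidase Ero1a (1.22 ± 0.24, adjusted p = 0.00514) and Cdkn1a (1.09 ± 0.30, adjusted p = 0.0287) were higher, and the angiogenic factor Vegfa was lower (-0.86 ± 0.17, adjusted p = 0.00596). Ero1a and Vegfa were named after their values were seen.

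The other arms of the unfolded protein response are run by ATF6 and by XBP1. Of 19 genes of the ATF6 and XBP1 arms, 3 rose in HFD TRAF3 knockouts, where 1.68% of all genes were higher and 2.52% were called. None of the 19 was called in TRAF2 knockouts on chow (0.298% of all genes) or HFD (0.252%), or in TRAF3 knockouts on chow (11.0%). Hspa5, the chaperone BiP, read 11.41, 11.06 and 10.75 against 10.41, 10.38 and 10.16 (0.76 ± 0.17, adjusted p = 0.0214). The sensor Ern1 (0.70 ± 0.16, adjusted p = 0.0263) and the ubiquitin ligase Syvn1 (0.66 ± 0.15, adjusted p = 0.0258) rose by similar amounts, and the list's median was 0.11. Ern1 was about as high in HFD TRAF2 knockouts (10.78, 10.98 and 10.83) as in HFD TRAF3 knockouts (10.89, 11.02 and 10.77). In HFD controls it read 10.38, 10.33 and 9.86. None of the 19 was called between TRAF3 and TRAF2 knockouts on HFD (1.05% of all genes). Beta cell transcripts did not mark the HFD TRAF3 knockouts. In chow TRAF3 knockouts 4.69% of all genes were lower. Of 9 such genes 7 fell in chow TRAF3 knockouts, with Slc2a2, the glucose transporter, at -2.97 ± 0.52 (adjusted p = 0.00313), Ucn3 at -2.04 ± 0.37 (adjusted p = 0.00376) and Slc30a8 at -1.98 ± 0.33 (adjusted p = 0.00233), and none was called in HFD TRAF3 knockouts. Of 6 other islet hormone cell genes, Ghrl (-0.90 ± 0.23, adjusted p = 0.0204) and Ttr (-0.87 ± 0.17, adjusted p = 0.00553) fell on chow and none on HFD.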

How the data were processed

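Biotin-labelled RNA of islets was hybridised to 18 single-colour arrays. The authors deposited 1 log2 value per probe set and array, and per the submitters' processing notes RMA (background correction, quantile normalization and summary per probe set) and limma were used, without versions. A joint normalization of the 18 arrays is not given in the sources used here. Quantile normalization gives arrays like distributions, so a shift in total RNA cannot be seen. Of 41345 probe sets, 23521 had exactly 1 symbol, 1814 several and 16010 none. For genes with several probe sets the one with the highest mean was kept, giving 22180 genes with no filter on level.

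Limma 3.58.1 in R 4.3.3 was fitted to 6 group means (lmFit and eBayes defaults, 12 residual and 3.69 prior degrees of freedom) with 12 contrasts, and the code was tested on simulated data. The number of arrays limits the precision. Members, lists, tests and alternatives were chosen with earlier results of these data known. All members were named, with up to 3 genes per other list (those with the largest change among genes called in a knockout against control, or the first gene where none was called) and the 5 genes most like the members' mean. Markers and some other genes were named after their values were seen. Alternatives changed the scaling, filter, test, arrays and covariates. Fits within 1 sex, and without 2 arrays that stood apart or 2 rich in lymphocyte markers, were chosen after seeing the data. A few listed genes were not analysed here.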

Additional observations from a re-analysis of the deposited data

Results flagged for a closer look

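The effect of the TRAF3 knockout differed between groups by a test of the difference itself in 6 results. Against TRAF2 knockouts on HFD it was larger for Atf3 (4.13 on the log2 scale), Ppp1r15a (1.97) and Atf4 (0.92). On HFD against chow, as an interaction, it was larger for Atf3 (4.40), Ppp1r15a (2.15) and Ddit3 (2.29). Every HFD TRAF3 knockout array was above every HFD TRAF2 knockout array for all 4 genes. This is a description, since the share of all genes that separate so was not counted. The interactions rest in part on the chow controls, of which replicate 1 was low for every member, and leaving it out gave 5.37 for Atf3. Among female arrays alone, with 1 chow array per genotype, the interactions were 2.13 for Atf3, 1.20 for Ppp1r15a and 1.34 for Ddit3 (adjusted p by limma 0.129, 0.432 and 0.691). Groups of 3 were not screened for outlying arrays.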

How the results depend on the processing

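Of the members' changes under the alternatives none reversed a called direction: 3683 kept their side of the threshold, 110 passed it and 97 no longer did. Atf3 and Ppp1r15a in HFD TRAF3 knockouts against controls were called under every alternative run. Counts of members called moved more, and the shares of all genes called in these fits are not given beside them. For HFD against chow in controls (1 called) the count was 3 with each array centred on its median and with only genes of above-median level, 2 with a trended, robust fit and without the 2 lymphocyte-rich arrays, 0 with every probe set, with only the arrays compared, with the replicate block, with the sex score and in female arrays, 5 with the ductal score, 4 with the acinar score and 8 without the 2 arrays that stood apart. In TRAF2 knockouts (3) it was 6 with only the arrays compared, 5 with the ductal or acinar score, 0 in female arrays and 7 without the 2 arrays apart. In TRAF3 knockouts (3) it was 1 with only the arrays compared, in female arrays and without the lymphocyte-rich arrays, 5 with the acinar score and 7 without the 2 arrays apart. For TRAF3 knockouts against controls on HFD (4) it was 2 with only the arrays compared and in female arrays, 3 without the lymphocyte-rich arrays, 5 with the ductal score and with only genes of above-median level, and 6 with the acinar score and without the 2 arrays apart, and on chow (0) it was 1 with the acinar score, in male arrays and without the 2 arrays apart. For TRAF3 against TRAF2 knockouts it was 1 in female arrays and 5 without the 2 arrays apart on HFD (3), and 2 in male arrays on chow (0). For both knockouts (1) it was 2 with only genes of above-median level, in female arrays and without the 2 arrays apart. For the TRAF3 interaction (3) it was 5 with only genes of above-median level and with the sex, ductal or acinar score, 0 in female arrays and 6 without the 2 arrays apart. The members gained on chow did not share a direction. In TRAF3 knockouts against controls, Psat1 was higher with the acinar score (1.21). Atf3 was lower there in male arrays (-1.10), and Chac1 was lower without the 2 arrays apart (-1.11). In male arrays on chow, Atf3 (-1.43) and Ppp1r15a (-0.78) were lower in TRAF3 than in TRAF2 knockouts. Fewer genes or fewer arrays enter some of these fits, and the cause of the other shifts was not tested.

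Leaving out each array in turn gave 3 to 6 members for TRAF3 knockouts against controls on HFD (6 without chow control 1), 0 to 7 for HFD against chow in controls, 0 to 5 in TRAF2 knockouts and 1 to 6 in TRAF3 knockouts, 0 to 3 for both knockouts, 2 to 5 for TRAF3 against TRAF2 knockouts on HFD and 2 to 6 for the TRAF3 interaction. The replicate numbers did not pair the samples: of 45 pairs of arrays with a shared number 16 had deviations from group means correlated above 0.1, with a median r of 0.03. The fit to only the arrays compared was not run for both knockouts, which use all 18. Female and male fits hold 10 and 8 arrays, with 4 and 3 residual degrees of freedom, and some groups are then 1 array, assumed to vary like the others.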
